A study of Rattus norvegicus with 8 samples.

Results

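The muscle atrophy and glucocorticoid-responsive genes described here are a set of 10: the ubiquitin ligase genes Fbxo32 and Trim63, the forkhead factors Foxo1 and Foxo3, the glucocorticoid targets Klf15, Fkbp5, Tsc22d3, Ddit4 and Cebpd, and the glucocorticoid receptor gene Nr3c1. Members were found by gene symbol in a table of 14016 entries and 13899 symbols, and where a symbol stood on several entries the one with the highest average CPM was to be taken. Of the 10 symbols, 9 have an entry, each on 1 entry, and Nr3c1 has none under that name. The series is RNA sequencing of the thyroarytenoid (TA) muscle, the intrinsic laryngeal muscle that forms the body of the vocal fold, from male Long Evans rats. All animals were 8 months of age, and the groups were 4 Pink1-/- rats, which lack the mitochondrial kinase gene Pink1 in every tissue, and 4 wildtype (WT) rats. Total RNA was used, and the labels name no treatment.

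The levels given below are averages over all 8 libraries, Pink1-/- and WT together, as the authors computed them. The table holds 0 columns of values per rat, and its only columns on genotype are the authors' own comparison, which was not used here. No difference between Pink1-/- and WT is therefore reported for any gene, no spread between rats can be given, and the depth of each library is unknown. The values describe how much of the RNA sequenced from this muscle came from each gene and what lies in front of the genes in the genome.

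Skeletal muscle loses protein in fasting, disuse, denervation and glucocorticoid excess, and much of that protein is tagged with ubiquitin and degraded by the proteasome. FoxO factors enter the nucleus when insulin and IGF-1 signaling through AKT is low and switch on Fbxo32 and Trim63. Glucocorticoids bind the receptor encoded by Nr3c1, which leaves its chaperone complex, enters the nucleus and binds short paired sites arranged as an inverted repeat. In mouse muscle cells the receptor and FoxO1 act together at the Trim63 promoter.

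The stretch of the Trim63 promoter with matches for both kinds of factor is shown first, because Trim63 was the only member in which both were found. Promoter sequences are from RefSeq (GRCr8), read 5′ to 3′ on the strand of the gene. Positions are counted in bases before the transcript start. The 250 bases before the Trim63 start (chr5:151816986-151817235, plus strand) are printed with a glucocorticoid receptor element, a FoxO word and a TATA word in capitals. The receptor element and the FoxO word form 1 run of 22 bases in capitals (chr5:151817016-151817037, plus strand), and the later, shorter run is the TATA word.
Trim63: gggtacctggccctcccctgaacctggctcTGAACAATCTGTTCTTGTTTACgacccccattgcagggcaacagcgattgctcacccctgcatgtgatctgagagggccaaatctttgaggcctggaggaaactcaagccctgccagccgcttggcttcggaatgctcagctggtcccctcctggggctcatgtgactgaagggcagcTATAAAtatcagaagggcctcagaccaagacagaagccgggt

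The receptor element of Trim63 spans positions 220 to 206 before the start. It was found by a search for the inverted repeat of AGAACA and TGTTCT with 3 bases between them, with at most 1 mismatch in each of these arms of 6 bases. It differs from that repeat at 1 base, A1T, with positions counted from 1 at the 5′ end of the element, and its second arm TGTTCT is exact. The FoxO word GTAAACA lies directly after it on the opposite strand, at positions 205 to 199, with no base between them. Elements within this mismatch limit were in 1.09% of all 33469 RefSeq promoter windows and the FoxO word in 3.78%. Among the 11088 windows of genes in the table, these shares were 0.415% and 2.50%. The windows run from 250 bases before the start to 50 bases after it. The exact repeat with no mismatch was in 0.0149% of windows and in no window of a member. The arm TGTTCT alone, on either strand, was in 20.7% of all windows and in 12.5% of windows of genes in the table. Among members it was found only in Trim63, inside the element described above.

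Of the 10 genes, 7 have at least 1 promoter window, with 10 windows among them, since Tsc22d3 has 3 and Nr3c1 has 2. Fbxo32, Foxo3 and Cebpd were not matched to a window and are not described by sequence. The FoxO word was found in 2 members, Trim63 and Tsc22d3. Tsc22d3 encodes the glucocorticoid-induced leucine zipper GILZ, an anti-inflammatory protein, and the window that matters here is that of its start farthest downstream in the gene. Its FoxO word lies on the opposite strand at positions 162 to 156, and it shares with Trim63 a TATA word at nearly the same place, at positions 44 to 39 in Tsc22d3 and 42 to 37 in Trim63. The TATA word TATAAA was in 14.2% of all windows and in 7.40% of windows of genes in the table, searched like every word on both strands. The 250 bases before this start of Tsc22d3 (chrX:109010035-109010284, minus strand) are shown because they hold the same 2 words, with the FoxO word, the TATA word and a pair of overlapping CCAAT words in capitals.
Tsc22d3: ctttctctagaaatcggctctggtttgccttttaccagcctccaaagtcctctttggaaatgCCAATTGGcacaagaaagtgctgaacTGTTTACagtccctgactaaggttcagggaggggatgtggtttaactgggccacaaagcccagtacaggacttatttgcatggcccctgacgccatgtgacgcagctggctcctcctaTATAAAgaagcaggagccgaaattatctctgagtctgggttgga

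The remaining windows were of another kind, without a FoxO or TATA word. Klf15 encodes a zinc finger factor that glucocorticoids induce and that promotes amino acid breakdown in muscle. It was the only member with the E-box CACGTG, at positions 101 to 96, a word bound by USF, MYC and clock factors. The E-box was in 6.42% of all windows and in 8.61% of windows of genes in the table. A CCAAT word, which the factor NF-Y binds, lies at positions 160 to 156. Fkbp5 encodes a co-chaperone that lowers the affinity of the receptor for hormone, and its window held only a CCAAT word, at positions 208 to 204. In mouse and human cells the receptor is known to act on this gene from introns far from the start, which such windows do not cover. The 250 bases before Klf15 (chr4:124522765-124523014, plus strand) and before Fkbp5 (chr20:6543556-6543805, minus strand) are set side by side as examples of this kind, with the E-box and CCAAT words in capitals.
Klf15: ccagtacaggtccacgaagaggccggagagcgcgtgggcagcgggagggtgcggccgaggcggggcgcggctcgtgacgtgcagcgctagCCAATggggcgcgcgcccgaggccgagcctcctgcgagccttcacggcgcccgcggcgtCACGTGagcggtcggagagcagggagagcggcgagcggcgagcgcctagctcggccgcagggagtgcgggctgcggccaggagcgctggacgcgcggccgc
Fkbp5: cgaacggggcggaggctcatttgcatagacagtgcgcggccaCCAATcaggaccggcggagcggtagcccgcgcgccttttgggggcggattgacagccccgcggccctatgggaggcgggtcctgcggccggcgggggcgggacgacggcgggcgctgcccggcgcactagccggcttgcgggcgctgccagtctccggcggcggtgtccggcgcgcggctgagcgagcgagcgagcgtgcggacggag

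Ddit4 held CCAAT words at positions 121 to 117 and 88 to 84, both on the opposite strand, and Foxo1 held 1 after its start. The CCAAT word was in 37.5% of all windows and in 5 of the 10 windows of members. Neither window of Nr3c1 and neither of the other windows of Tsc22d3 held any of the words. A match is a run of letters and not a measured binding event, and no binding was assayed in these rats.

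**Figure D1:**
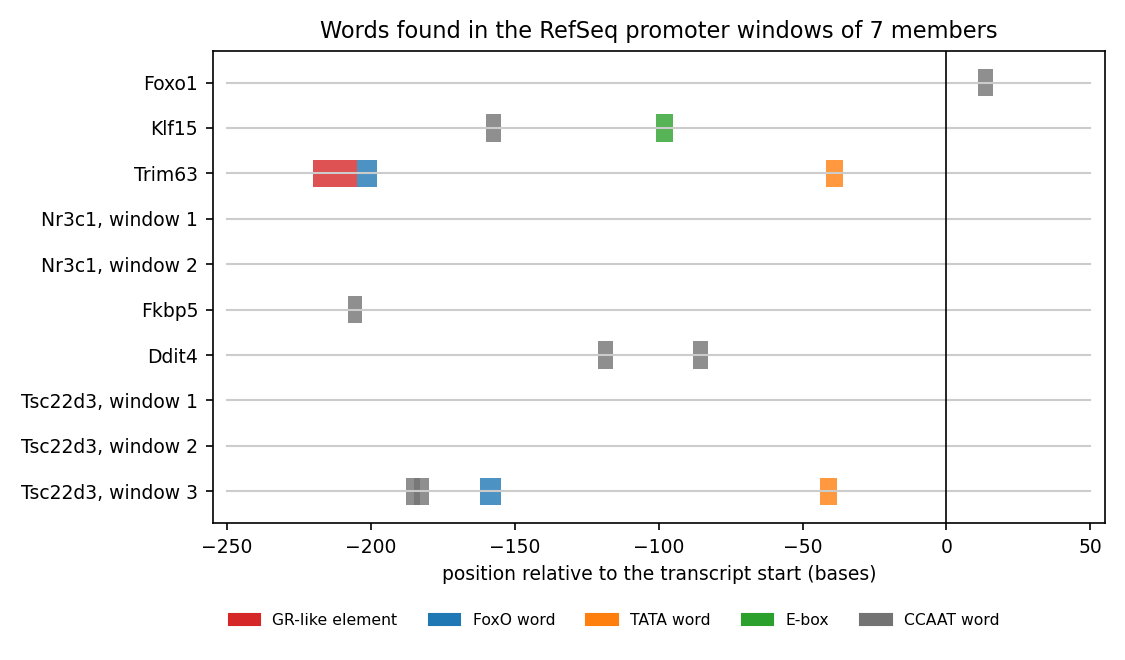
Positions of sequence words in the 10 RefSeq promoter windows of 7 members, in bases relative to the transcript start (vertical line). Each row is 1 window and each box 1 match on either strand. Trim63 holds a glucocorticoid receptor-like (GR-like) element directly followed by a FoxO word, and Trim63 and window 3 of Tsc22d3 are the only rows with a FoxO or TATA word.

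The windows differed in base composition as well. The median of all windows was a GC content of 51.7% and a CpG ratio, the number of CG pairs over the number expected from the C and G content, of 0.392. Klf15 had a GC content of 77.3% and a CpG ratio of 1.17, Fkbp5 had 77.0% and 1.21, and Foxo1 had 75% and 1.17. These 3 CpG ratios exceeded those of 99.2%, 99.6% and 99.2% of all windows, and windows so rich in CG pairs are typical of CpG islands. The windows of Nr3c1 had CpG ratios of 0.961 and 1.05, and that of Ddit4 had 0.746 at a GC content of 68.3%. Trim63, in contrast, had a GC content of 57.0% and a CpG ratio of 0.328, below the median. The downstream window of Tsc22d3 (window 3) had 50.7% and 0.260, while windows 1 and 2 had CpG ratios of 0.650 and 0.824. In 9 of the 10 windows the GC content was above the median of all windows, and in 8 the CpG ratio was. GC content and CpG ratio were not computed separately for the windows of genes in the table. Whether the members differ from those genes was therefore not tested.

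**Figure D2:**
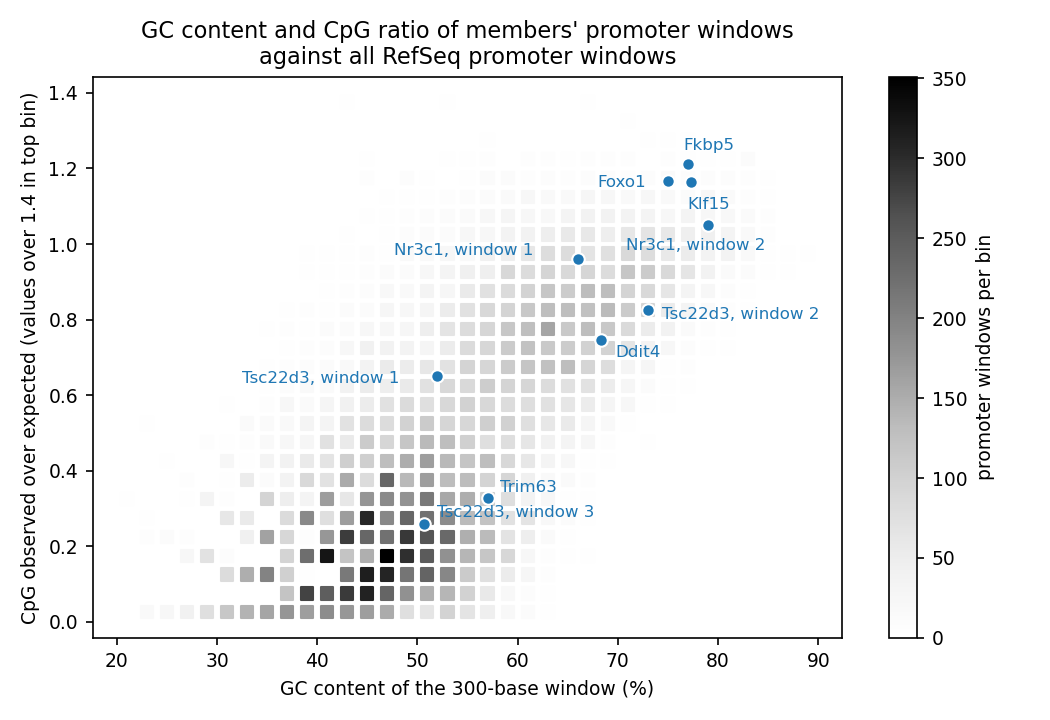
GC content (x axis, %) against CpG ratio (y axis, observed over expected) of promoter windows. Grey squares are bins of all 33469 RefSeq windows, darker for more windows, and blue points are the 10 windows of members. Fkbp5, Klf15 and Foxo1 lie at the upper right with CpG ratios of 1.17 to 1.21, and Trim63 (0.328) and window 3 of Tsc22d3 (0.260) lie among the CpG-poor windows.

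The ligase genes were among the more heavily sequenced genes of this muscle. CPM expresses the reads of a gene as a share of all reads of a library, and a long transcript yields more reads than a short one at the same number of molecules. No transcript lengths were used, so the places below are places by reads and say nothing of the order in molecules. Fbxo32, which encodes the muscle F-box protein atrogin-1, the substrate-binding part of an SCF ubiquitin ligase, had an average log2 CPM of 6.45, or 87.3 CPM. That is above 95% of the 13899 symbols. Trim63, which encodes the sarcomere-bound RING ligase MuRF1, had an average log2 CPM of 5.50, or 45.3 CPM, above 88.4% of symbols. Together the 2 ligase genes accounted for 133 CPM.

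Foxo1 had an average log2 CPM of 4.15 and Foxo3 of 4.11, or 17.8 and 17.3 CPM. Both encode forkhead transcription factors that AKT holds in the cytoplasm by phosphorylation, and both lay between the median of all symbols, 3.15, and the upper quartile, 4.49. Of the other family members, Foxo4 was at 4.79 and Foxo6 at 1.04. The CPM of these genes measures RNA, whereas FoxO activity is set mainly by phosphorylation and location of the protein, which were not measured.

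The glucocorticoid targets were spread over most of the range of the set. Tsc22d3 had an average log2 CPM of 6.42, or 85.6 CPM, above 94.9% of symbols. Fkbp5 was at 4.18 and Klf15 at 4.17, or 18.2 and 18.01 CPM, above 69.8% and 69.5% of symbols. Foxo1, Foxo3, Klf15 and Fkbp5 thus lay within 0.08 log2 units of each other by reads, and the spread between rats that would show whether they differ is unknown. Cebpd, a leucine zipper factor induced by glucocorticoids and by inflammation, was at 2.86, or 7.27 CPM, above 44.4% of symbols. Ddit4, which encodes the mTORC1 inhibitor REDD1, was at 1.66, or 3.15 CPM. It had fewer reads than any other member measured, with 23.9% of symbols below it.

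Across the 9 genes with an entry, 7 were above the median of all symbols and 2, Cebpd and Ddit4, were below it, and the median of the 9 was 4.17. Fbxo32, Tsc22d3 and Trim63 were also above the upper quartile. For the receptor itself, 1 entry with the clone name AABR07031756.1 (ENSRNOG00000014096) carries the description "glucocorticoid receptor". It was at an average log2 CPM of 6.05, or 66.2 CPM, above 92.8% of symbols. Its name is not Nr3c1, so it was not counted as a member. Among the Ensembl entries behind the members were ENSRNOG00000006738 for Fbxo32, ENSRNOG00000016543 for Trim63, ENSRNOG00000017808 for Klf15 and ENSRNOG00000050869 for Cebpd.

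**Figure D3:**
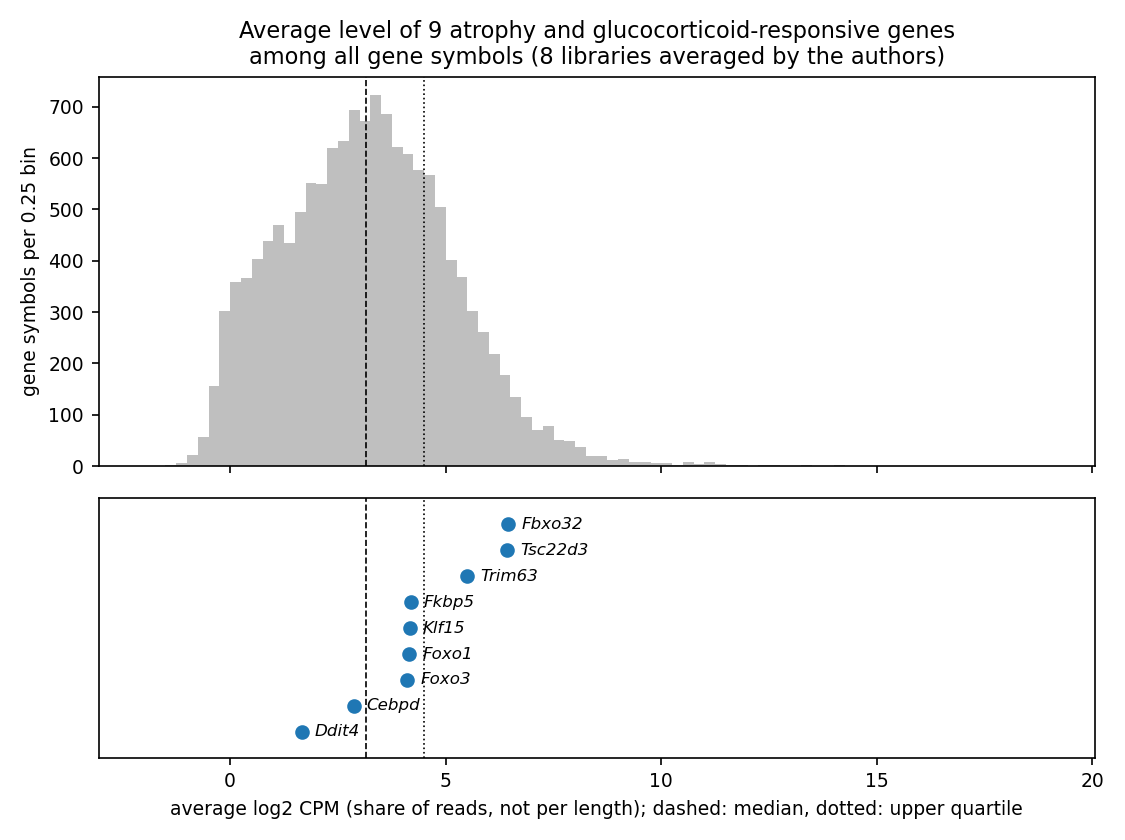
Top, number of gene symbols (y axis) by average log2 CPM (x axis) in bins of 0.25, for all 13899 symbols. Bottom, the 9 members with an entry on the same axis, 1 point each with no error because each value is 1 average over the 8 libraries. Fbxo32 (6.45), Tsc22d3 (6.42) and Trim63 (5.50) lie above the upper quartile (dotted line, 4.49), and Cebpd (2.86) and Ddit4 (1.66) lie below the median (dashed line, 3.15).

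Genes of related lists, where they have an entry, were mostly at read shares above the median of all symbols. Of 15 other muscle ubiquitin ligases, 15 have an entry and 14 were above the median of all symbols, with a list median of 5.004. Nedd4, a HECT ligase, was at 9.10 and Fbxo40, a muscle F-box protein that targets IRS1 in mouse, at 6.79, while Fbxo21 was at 2.96. Of 20 other glucocorticoid-induced genes, 17 have an entry and 15 were above the median, with a list median of 4.97. Glul, glutamine synthetase, was at 8.83 and Mstn, myostatin, at 7.17, while the metallothionein gene Mt1 was at 0.01.

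Of 12 genes of the receptor machinery, 11 have an entry and 9 were above the median, with a list median of 5.20. The chaperone gene Hsp90ab1 was at 9.55 and the corepressor gene Ncor1 at 6.998. Hsd11b2, whose enzyme inactivates corticosterone and is known from kidney, was at -0.62, near the lowest entry of the table at -1.34. Hsd11b1, whose enzyme regenerates the active hormone, was at 2.73. Of 15 genes of IGF-1, AKT and mTORC1 signaling, the arm that restrains FoxO, 15 have an entry and 15 were above the median, with a list median of 5.18. They ran from Rheb at 3.91 to Irs1 at 5.94 and Pik3r1 at 5.98.

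Of 11 catabolic genes that FoxO factors are known to induce, 11 have an entry and 10 were above the median, with a list median of 5.11. The autophagy adaptor gene Sqstm1 was at 7.52 and Atg4b, a protease of autophagy, at 2.97. Proteins that the 2 ligases are known to target include contractile proteins, and of 11 such genes 8 have an entry, with a list median of 10.11. The fast myosin gene Myh4 was at 14.75, Myl1 at 11.35 and the myogenic factor gene Myod1 at 2.48. All these lists are described by level only, and their medians stand against 3.15 over all symbols and 4.17 over the members.

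**Figure D4:**
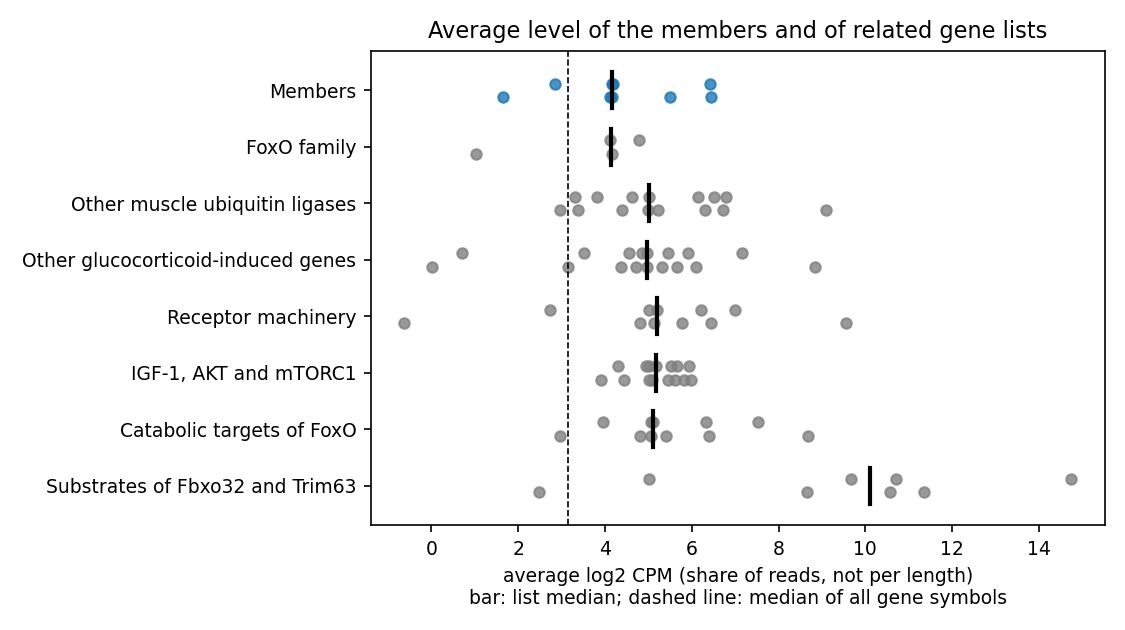
Average log2 CPM (x axis) of the 9 members (blue) and of the genes of 7 related lists (grey), 1 point a gene in each row, with list medians as black bars. Foxo1 and Foxo3 are in both the row of members and that of the FoxO family. The median of the members was 4.17, list medians ran between 4.13 for the FoxO family and 10.11 for the ligase substrates, and the dashed line marks the median of all symbols at 3.15.

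Of the words found in the members, the receptor element, the FoxO word and the TATA word were also counted in the other lists. No gene of these 7 lists other than the members held the receptor element within 1 mismatch per arm, and the FoxO word was found in Pik3ca and Tsc1, both of the IGF-1, AKT and mTORC1 list. Among the other glucocorticoid-induced genes, 17 have a window and 7 of these held a TATA word, namely Angptl4, Cebpb, Errfi1, Mt1, Mt2A, Nfkbia and Sgk1. The TATA word was also in 5 of 9 ligase substrate genes with a window (Myh1, Myh2, Myh4, Myl1 and Tnni2), in 3 of 9 catabolic genes (Gabarapl1, Psmd11 and Sqstm1) and, of 12 genes of IGF-1, AKT and mTORC1 signaling, in Akt2. It was found in none of the 3 genes of the FoxO family, the 12 other ligases and the 7 genes of the receptor machinery that have a window. These counts are by gene, with 1 or more windows each, and stand beside shares of 14.2% of all windows and 7.40% of windows of genes in the table.

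The labelled tissue was checked against markers. Of 10 markers of skeletal muscle, 7 have an entry, between 10.71 and 14.75 in average log2 CPM. RNA of other cells was present too, with 7 of 8 markers of squamous epithelium between 4.37 and 8.18, 4 of 4 fibroblast markers between 6.10 and 9.34 and 4 of 4 macrophage markers between 2.43 and 5.46. Of the adipocyte markers 3 of 4 have an entry, at 0.91 to 1.87, of the cartilage markers 2 of 2, at 0.51 and 2.11, and of the T cell markers 0 of 2. A gene without an entry cannot be taken as absent, since the muscle markers Myh1 and Myh2 also have none. Endothelial markers (2 of 3 with an entry) lay between 5.41 and 6.02, Schwann cell markers (2 of 2) between 4.69 and 6.11, and the thyroid gene Tg was at 6.24. Fkbp5, Tsc22d3, Cebpd and Ddit4 are known to be expressed in many of these cell types. Fewer cells of a type and less RNA per cell cannot be told apart in bulk tissue, and the share of each member's reads that came from muscle fibers was not tested.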

How the data were processed

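RNA of TA muscle from 4 Pink1-/- and 4 WT rats was sequenced, and samples were grouped by the labelled genotype. RSEM, a read counter, and edgeR 3.9 are the tools in the submitters' processing notes. Not given in the sources used here are genome build, annotation, scaling and filter. The deposited table holds an average log2 CPM per gene, made by the authors over all samples, which was the only measurement used. A further 5 columns hold the authors' comparison of Pink1-/- with WT (log2 fold change, likelihood ratio, p-value, adjusted p-value and call) and were left out, as there are 0 columns per sample. Depth per library is unknown, so no error is given and no test was run.

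CPM was taken as 2 to the power of the average log2 CPM, and symbols on several entries (64) kept the highest. List members without an entry were also looked up by older RefSeq symbols, and lists count each gene once. Promoter words were searched on both strands of RefSeq windows (GRCr8), and the search recovered planted words when tested on simulated data. The members and lists were chosen with earlier results of these data known. Genes named are all members and, of each pathway list, the 2 with the highest and the 1 with the lowest level, less any not reported here. Hsd11b1, Tg and the genes named for a promoter word are further names. Transcript lengths and proteins were not used here. Alternatives are given in the closing section. Computation used pandas 2.3.3 and numpy 2.4.6 under Python 3.11.15, with scipy 1.17.1, and figures matplotlib 3.10.9.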

Additional observations from a re-analysis of the deposited data

How the results depend on the processing

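The count of members above the median of all symbols was 7 when only entries with an average CPM of at least 1 were ranked. It was also 7 when every entry was ranked. The median level of the members was 4.17 when the entries of a symbol were summed. Each member with an entry stands on 1 entry, so this median could not change. Counted against the upper quartile, 3 members were above. Genes of the 7 related lists above the median numbered 73 of 81, and 72 with a minimum average CPM of 1. These counts include the members Foxo1 and Foxo3, which are also in the FoxO family list. With 1 mismatch allowed in each arm of the receptor element, 1 member held it, against 0 with none. The count of members with a FoxO word was 2 for the bases before the start only and for the short form GTAAAC. Every full word contains the short form, so the short-form count could not fall below 2. The short form was in 8.11% of all windows and in 6.36% of windows of genes in the table. It was among the planned words, but its use as an alternative was added after the data had been seen. The FoxO word was in 2.50% of windows of genes in the table and in 3.21% of windows when only bases before the start were searched. Not run were levels per kilobase and the protein comparison, for which no lengths or proteins were used here, and leaving out each rat. No paired analysis was possible because single rats have no column of their own, and library depths, which would set limits of detection, are unknown.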

Other observations

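The search for windows that resemble the Trim63 promoter was chosen after that window had been seen, so its counts are a description. The receptor element within 1 mismatch per arm and the FoxO word stood together in 20 of 33469 windows, or 0.0598%, which belong to 17 genes. In 2 of these windows no base lay between them, that of Trim63 and that of the olfactory receptor gene Or11h6. Of the 17 genes, Trim63 alone has an entry in the table of TA muscle under its RefSeq symbol. Most of the 17 carry LOC symbols or are olfactory receptor genes. Of all 33469 windows, 11088 belong to genes in the table.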
